A study of Mus musculus with 8 samples.

Results

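The regions described here are m6A peaks whose summit lay inside the body of an annotated mouse gene but in no annotated exon of any transcript. They were taken from m6A-RIP-seq of primary vascular smooth muscle cells (VSMCs) of mice, in which RNA fragments bound by an anti-m6A antibody (IP) were sequenced and set against input RNA. The cells had grown out of the descending aorta of C57BL/6J mice after removal of the adventitia and endothelium, and were transduced with lentivirus carrying a short hairpin RNA, which was directed either at a plant microRNA as control (shCTR) or at Mettl14 (shMettl14). Each shRNA had 2 replicates, A and B, and 1 peak list per IP sample. The 4 lists held 42744 summits, of which 3040 were intronic. Merging the intervals of the intronic summits where they shared at least 1 bp gave 1565 intronic regions, of 11585 regions when exonic (9070) and intergenic (950) summits were merged in the same way. No source says whether A and B came from separate cell isolations. The permutation and limma p-values here therefore measure the spread between these lists, which may be technical. Those of Fisher's exact test, given near the end, cover counting error only.

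N6-methyladenosine is written by a complex of METTL3, the catalytic subunit, and METTL14, which helps the complex bind RNA. The complex acts on nascent transcripts, at the motif DRACH, where D is any base but C, R a purine and H any base but G, and of which GGACT is a strongly methylated form. In mature mRNA the mark is best known from long internal exons, the region of the stop codon and the 3′ UTR. Introns are removed by splicing, so intronic sequence reaches an m6A-RIP library of total RNA through unspliced or partly spliced transcripts, through exons that the annotation lacks, or through transcribed repeats that lie within a gene. Antibodies against m6A can also enrich purine-rich RNA that carries no DRACH site.

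The windows below show what the strongest recurrent intronic regions looked like. Each is 101 nt of the GRCm38 reference (RefSeq assembly), centred on the strongest summit, written 5′ to 3′ on the strand of the host gene, with every DRACH match in capitals.
Zfp973 (chr2:176683040-176683140, plus strand): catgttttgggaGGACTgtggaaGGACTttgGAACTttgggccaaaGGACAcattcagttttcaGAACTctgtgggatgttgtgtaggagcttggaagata
Galnt11 (chr5:25237366-25237466, plus strand): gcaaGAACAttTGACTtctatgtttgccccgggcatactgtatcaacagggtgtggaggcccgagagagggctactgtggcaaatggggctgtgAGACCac
Ctse (chr1:131649236-131649336, plus strand): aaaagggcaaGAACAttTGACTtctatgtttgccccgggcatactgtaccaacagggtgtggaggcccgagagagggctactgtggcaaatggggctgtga
Zfpm2 (chr15:41047315-41047415, plus strand): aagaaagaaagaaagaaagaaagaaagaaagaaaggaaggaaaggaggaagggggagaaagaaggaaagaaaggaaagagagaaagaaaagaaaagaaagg
Spen (chr4:141521366-141521466, minus strand): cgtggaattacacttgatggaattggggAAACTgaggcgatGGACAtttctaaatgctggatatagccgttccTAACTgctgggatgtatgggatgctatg
Gm12185 (chr11:48944242-48944342, minus strand): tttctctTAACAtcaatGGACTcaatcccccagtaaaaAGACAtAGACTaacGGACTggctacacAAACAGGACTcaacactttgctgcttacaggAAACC
The Zfp973 window held 5 DRACH matches, 2 of them GGACT, and the Gm12185 window held 8, 3 of them GGACT. The Zfpm2 window held none, and 100% of its bases were purines. Galnt11 lies on chromosome 5 and Ctse on chromosome 1, yet their windows were nearly the same sequence: over 195 nt around the summits they were 98.5% identical.

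Windows of other regions recurred many times over. The next set shows, for 5 of the families of alignable intronic windows described further on, the member with the most partners among those in the body of a single gene.
Gm14005 (family A, chr2:128252890-128252990, minus strand): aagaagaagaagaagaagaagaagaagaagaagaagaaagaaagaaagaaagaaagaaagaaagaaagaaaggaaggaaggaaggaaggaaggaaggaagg
Sulf1 (family B, chr1:12830510-12830610, plus strand): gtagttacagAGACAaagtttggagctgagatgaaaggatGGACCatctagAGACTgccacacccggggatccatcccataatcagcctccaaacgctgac
Dram2 (family C, chr3:106565324-106565424, plus strand): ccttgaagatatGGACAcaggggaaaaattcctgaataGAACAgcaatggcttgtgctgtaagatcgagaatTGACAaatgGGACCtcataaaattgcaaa
Lhfp (family D, chr3:53188508-53188608, plus strand): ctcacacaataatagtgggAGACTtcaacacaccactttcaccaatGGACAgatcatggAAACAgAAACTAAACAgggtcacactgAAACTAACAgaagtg
Alk (family G, chr17:72003528-72003628, minus strand): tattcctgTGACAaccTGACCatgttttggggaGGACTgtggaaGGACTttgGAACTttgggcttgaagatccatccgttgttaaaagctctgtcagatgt
The Alk window held 5 DRACH matches, 2 of them GGACT, as the Zfp973 window did, and the sequences around both summits were 87.4% identical over 183 nt.

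The last window shows a summit close to an exon, in Thbs1, which encodes thrombospondin, a matrix glycoprotein of the injured artery.
Thbs1 (chr2:118114265-118114365, plus strand): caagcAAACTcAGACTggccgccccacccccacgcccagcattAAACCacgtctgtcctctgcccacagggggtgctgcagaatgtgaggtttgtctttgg

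Intronic summits were a small share of every list. For shCTR, A held 916 of 11158 (8.21%) and B 566 of 8655 (6.54%). For shMettl14, A held 984 of 13675 (7.20%) and B 574 of 9256 (6.20%). The A list of each shRNA had the higher number and share. Of the 1565 regions, 1420 lay in the body of a single gene, in 1001 genes, and 145 lay in several overlapping gene bodies. Protein-coding genes hosted 1256 regions and lincRNA genes 87. The median width was 203 bp, with a range of 97 to 3539 bp.

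The regions fell into a group at exon borders and a larger group deep in introns. The strongest summit of a region lay a median of 1774 bp from the nearest annotated exon (quartiles 201 and 6053 bp), 333 regions lay within 100 bp and 257 beyond 10 kb. Within 100 bp, the closest exon was mostly the next one downstream. Of 294 such regions with a single gene strand, 247 (84.0%, 95% Wilson interval 79.4 to 87.8%) lay at the 3′ end of the intron, against 568 of 1167 (48.7%, 45.8 to 51.5%) of the regions farther away. The intervals do not overlap, but regions of 1 gene share its transcripts and the intervals cover counting error only. The Thbs1 window above is of this kind, with the summit 19 bp from an exon. Of the 333 regions near an exon, 318 had an interval that reached into it.

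**Figure D1:**
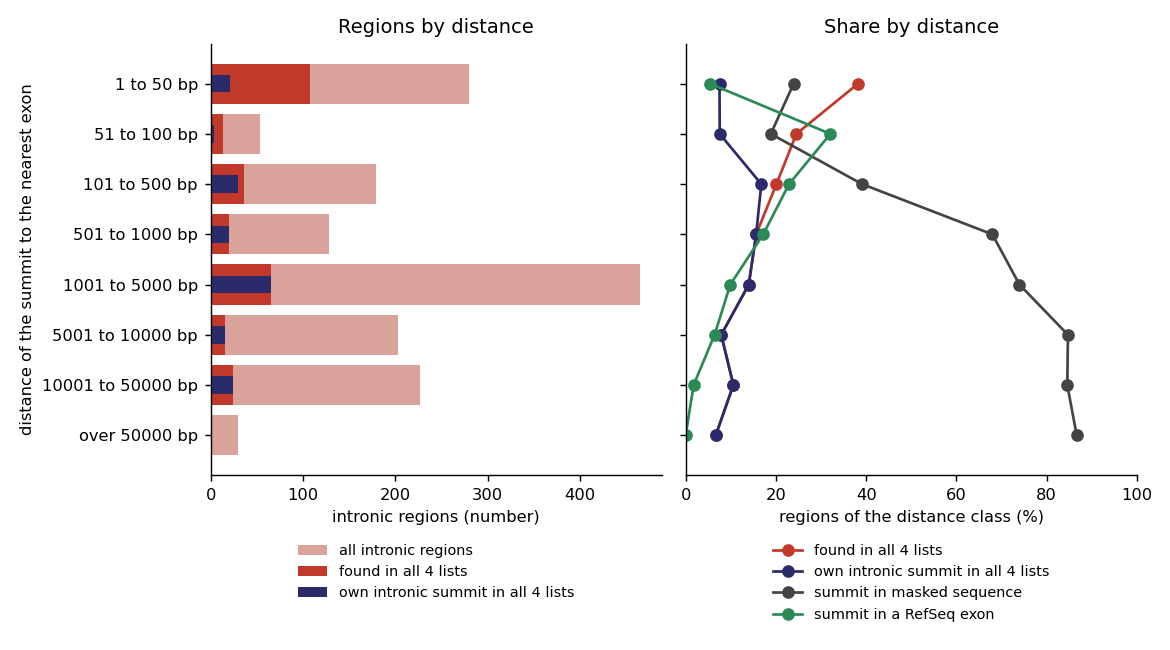
Left, number of intronic regions by distance of the strongest summit to the nearest annotated exon, with those overlapped by an interval of any kind in all 4 lists in dark red and those with an intronic summit of their own in all 4 in dark blue. Right, the share of each distance class that met either condition, with the summit in masked sequence, and with the summit in a RefSeq exon. Within 50 bp of an exon the red share is 38.2% and the blue share 7.50%, and the masked share is highest beyond 50 kb (86.7%, 30 regions).

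Distance also separated regions by sequence, as the plot of regions by distance shows. Of 280 regions within 50 bp of an exon, 67 (23.9%) had the summit in masked sequence, the lower-case part of the assembly, which marks repeats, and of 227 regions 10 to 50 kb away 192 (84.6%) did. Intervals of all 4 lists overlapped 107 of the 280 (38.2%), but intervals with exonic summits count in this number, and 21 (7.50%) had an intronic summit of their own in each list. Of the 227 far regions the number was 24 (10.6%) by either count. Between 51 and 100 bp, 17 of 53 summits (32.1%) lay in an exon of the RefSeq annotation that GENCODE M21 lacks. Over all distances this held for 158 regions (10.1%), such as one in Ddx17, an RNA helicase gene, where the RefSeq exon belongs to Ddx17 itself.

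First introns held about the share of regions that their length in the host genes gives. Among 1377 regions in genes with more than a single intron, 278 (20.2%) lay in the first intron, and first introns made up 20.1% of the intron length of the host gene on average over these regions and 17.5% when lengths were pooled. The last intron held 148 (10.7%). The host introns were long, with a median of 13143 bp. Of all 1565 regions, 938 (59.9%) had a host gene that also carried an exonic summit in some list.

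Intronic regions recurred far less often than exonic ones. Found in a single list were 772 regions (49.3%), 309 were found in 2, 201 in 3 and 283 (18.1%, 95% Wilson interval 16.3 to 20.1%) in all 4, where a region counted as found if any interval of the list overlapped it. Of exonic regions 51.03% were in all 4 lists, and of intergenic regions 15.9%. Of the 283 intronic regions, 182 had an intronic summit of their own in each list. Regions with an interval that touched an exon were in all 4 lists in 130 of 343 cases (37.9%), exonic peaks that overlapped them included, and wholly intronic regions in 153 of 1222 (12.5%). The order turned when an intronic summit in each list was asked for, with 29 of the 343 (8.45%) and again 153 of the 1222.

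**Figure D2:**
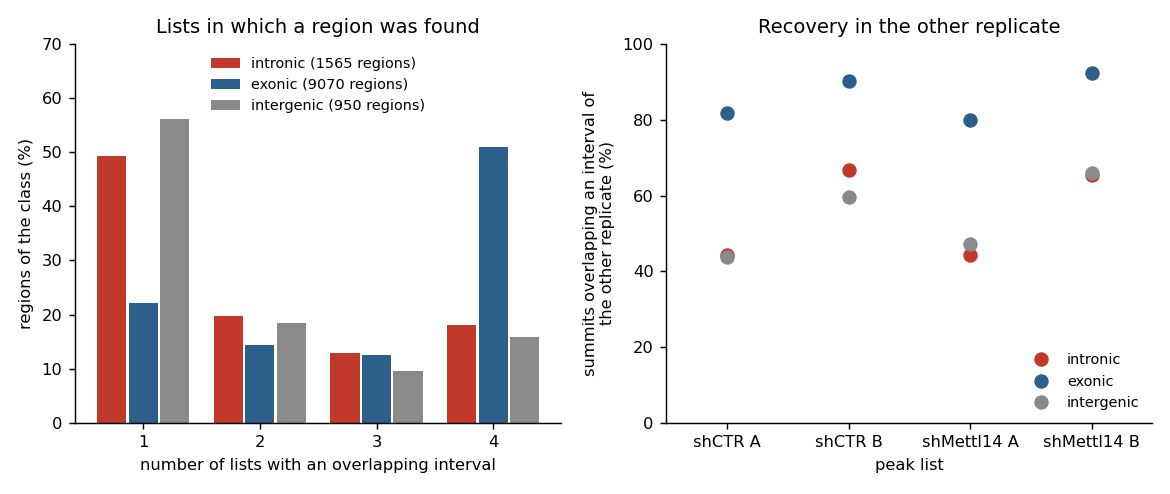
Left, share of intronic, exonic and intergenic regions by the number of lists with an overlapping interval. Right, share of summits of each list whose interval overlaps an interval of the other replicate of the same shRNA. Intronic points lie near the intergenic ones and below the exonic ones in all 4 lists.

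Recovery in the other replicate gave the same order. Of intronic summits, 44.2% of A and 66.8% of B for shCTR, and 44.4% of A and 65.3% of B for shMettl14, overlapped an interval of the other replicate. Exonic summits were recovered at 81.9%, 90.2%, 79.9% and 92.4% in the same order. The difference averaged -30.9 percentage points, and intronic was lower in 4 of 4 lists. Recovery of A in B and of B in A measures the same overlap, so the 4 values come from 2 replicate pairs, and no p is given. Against intergenic summits the mean difference was 1.03 points, less than its spread between lists (SD 4.39). Intronic summits also rested on fewer fragments, with a median pileup of 8 in each list against 14 to 17 for exonic summits. Among summits of 10 or fewer fragments, a comparison added after the data had been seen, the mean difference from exonic summits was -21.6 points. Outside masked sequence it was -23.8 points.

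Enrichment was weaker at intronic summits. Ranked by fold enrichment within a list, so that 100 is the strongest summit, the median intronic summit stood at percentile 35.9 (A) and 31.5 (B) for shCTR and at 34.97 (A) and 30.8 (B) for shMettl14, and the median exonic summit between 52.3 and 52.5. The mean difference was -19.1 ± 2.59 points (SD, n = 4 lists, exact sign-flip permutation p = 0.125, two-sided, the smallest that 4 lists allow). Among summits of 10 or fewer fragments it shrank to -3.89 points. Of intronic summits 2.65 to 4.88% were among the strongest 10% of their list, and of exonic ones 10.6 to 10.8%. Of 24 within-list comparisons of intronic with other summits or strands, recovery counted among them, 18 had an exact sign-flip permutation p of 0.125, which became 0.167 after Benjamini-Hochberg adjustment, so that none could pass 0.05.

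The sequence at intronic summits was mainly repeat sequence. The summit lay in masked sequence in 63.5% (A) and 58.0% (B) of intronic summits for shCTR and in 58.8% (A) and 59.9% (B) for shMettl14, in 6.99 to 7.67% of exonic ones and in 58.0 to 63.9% of intergenic ones. The authors kept uniquely mapped reads alone, so that reads with equally good matches at several repeat copies did not count. Masked regions were in all 4 lists in 129 of 968 cases (13.3%) and unmasked regions in 154 of 597 (25.8%), but with an intronic summit of their own in each list the numbers were 107 (11.1%) and 75 (12.6%). Median GC content of the 101-nt windows, averaged over the lists, was 45.2% at intronic and 51.7% at exonic summits.

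m6A motifs were less frequent at intronic than at exonic summits, but more frequent on the gene strand than on the opposite one. Within 50 nt of the summit, DRACH was present on the gene strand in 81.1% (A) and 83.8% (B) of intronic windows for shCTR, in 84.7% (A) and 79.4% (B) for shMettl14, and in 94.3 to 95.8% of exonic windows. The mean difference was -13.1 points. GGACT was present in 12.8%, 16.5%, 11.5% and 17.01% of intronic windows in the same order, and in 19.3 to 23.3% of exonic windows, a mean difference of -7.05 points. Outside masked sequence, a comparison added after the data had been seen, the differences were -8.01 points for DRACH and -4.15 points for GGACT. On the opposite strand of the same intronic windows GGACT was present in 8.15% on average and DRACH in 63.1%, below the gene strand by 6.30 and 19.2 points (differences 6.30 ± 2.52 and 19.2 ± 3.43, SD, n = 4). Each of these held in 4 of 4 lists (exact sign-flip permutation p = 0.125). A motif match is a description of the letters in the window and does not place a methylated base.

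Purine-rich windows were more frequent at intronic than at exonic summits. Windows with at least 90% purines on the gene strand made up 10.6% (A) and 7.03% (B) of intronic summits for shCTR, 5.98% (A) and 12.1% (B) for shMettl14, and 0.0286 to 0.0667% of exonic ones (mean difference 8.90 points, exact sign-flip permutation p = 0.125, higher in 4 of 4 lists). Windows with at least 90% pyrimidines averaged 1.72% of intronic summits. Among the 1461 regions on a single gene strand there were 125 purine-rich and 27 pyrimidine-rich ones, so among windows of this composition the purine-rich strand was mostly the gene strand. Of the 125, 22 (17.6%) held a DRACH match, and 21 (16.8%, 95% Wilson interval 11.3 to 24.3%) were found in all 4 lists, each with an intronic summit of its own there, where 18.1% of all intronic regions were found in all 4 and 11.6% had such summits. None of the 27 was. Intergenic summits have no gene strand, but the family of purine and pyrimidine runs described further on took in 14.3% of intergenic windows, 15.4% of intronic regions and 0.463% of exonic windows.

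**Figure D3:**
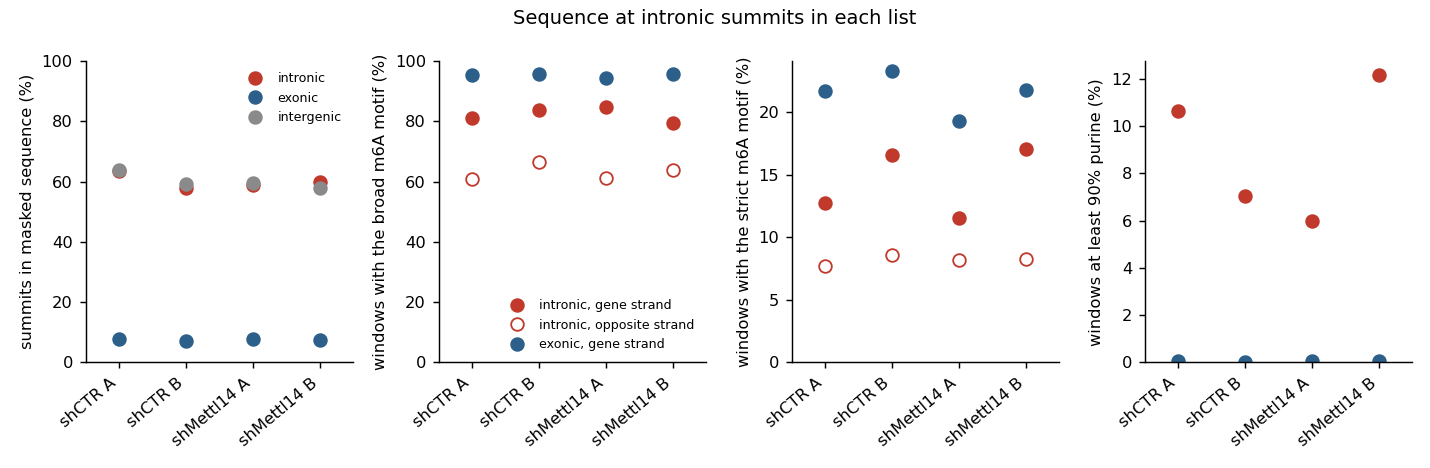
Share of summits of each list in masked sequence, and share of 101-nt windows with the broad m6A motif DRACH, with the strict 5-base form of it, and with at least 90% purines. Filled points are read on the gene strand and open points on the opposite strand of intronic windows. Intronic points are above exonic ones for masked and purine-rich sequence and below them for both motifs.

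Many intronic regions belonged to families of similar sequences. Aligning 201-nt windows around the strongest summits to each other, and joining those at least 80% identical over at least 100 nt, put 764 regions (48.8%) in 12 families of 10 or more, lettered A to L by size. Of intergenic windows 48.6% aligned to a member of a family, and of exonic windows 1.79%. Of the 801 regions in no family, 195 (24.3%) were found in all 4 lists, 98 (12.2%) with an intronic summit of their own in each, and 217 had a masked summit.

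Family A, shown above by its Gm14005 member, held 241 regions, 237 of them masked. Many of its windows were runs of purines or of pyrimidines. Of 227 on a single strand, 121 were purine-rich and 27 pyrimidine-rich, and DRACH was present in 33.5%. Of the regions with an intronic summit in a list it made up 18% (A) and 13.1% (B) for shCTR and 9.22% (A) and 18.7% (B) for shMettl14, so that the highest and the lowest share were both in shMettl14 lists.

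Families B, C and D were interspersed over the genome. They held 170, 122 and 108 regions on 20, 19 and 20 chromosomes, and DRACH was present in 94.97%, 95.8% and 89.7% of their single-strand windows. Members mostly lay in 1 orientation. Of the family B regions aligned to the member with most partners, 54 had the same orientation relative to the gene as that member and 8 the opposite one. The counts were 46 and 10 in family D. In family C they were 5 and 76, so that its most connected member, in the overlapping gene models Sprr2a1 and Sprr2a2, itself had the rarer orientation. Found in all 4 lists were 23 (13.5%), 10 (8.20%) and 8 (7.41%) of the regions of B, C and D, each with an intronic summit of its own in every list. Set against the 12.2% of regions in no family that had such summits, B was above and C and D were below.

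Smaller families stood out by motif or by recurrence. Family G, with the Alk window, had 16 regions in 16 host genes, held GGACT in 9 of 15 single-strand windows (60.0%), and was found in all 4 lists in 6 of 16 cases (37.5%, 95% Wilson interval 18.5 to 61.4%). Family L held GGACT in 7 of 10. Family F held no GGACT in 13 single-strand windows, and its 21 regions lay on 3 chromosomes in a few predicted genes, among them Gm26870 and Gm21738. With so few members the intervals of these families for the share found in all 4 lists overlap that of regions in no family. With an intronic summit of their own in each list were 6 of 16 regions in G, 1 of 10 in L and 0 of 21 in F. Of regions in no family 12.2% had such summits, below the interval of G, which covers counting error only.

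**Figure D4:**
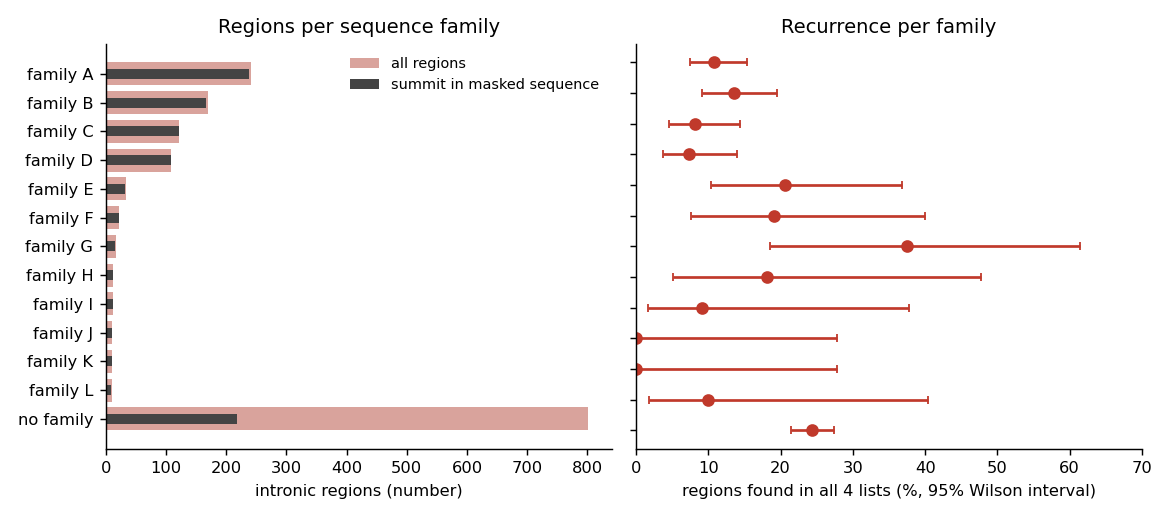
Left, number of intronic regions in each sequence family and in none, with those whose summit lies in masked sequence in dark grey. Right, the share found in all 4 lists with its 95% Wilson interval, which covers counting error only. Families A to D lie below the regions in no family (24.3%), of which 12.2% had an intronic summit of their own in each list.

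The strongest wholly intronic regions were found with high ranks in each list. Zfp973 encodes a zinc finger protein. Its region at chr2:176682947-176683357 had a deposited fold enrichment of 21.3 (A) and 23.8 (B) with shCTR and of 24.98 (A) and 31.3 (B) with shMettl14, a mean percentile of 99.1. Its summit lay 2000 bp from an exon in intron 4 of 7, and it belonged to family G with 14 alignable partners. A partner in the related gene Zfp972 was 96.8% identical over 185 nt and also in all 4 lists. That partner had the opposite orientation relative to its gene. Aligned to the Zfp973 window were also 22 intergenic windows and 3 exonic windows. With copies this similar, the assignment of reads to Zfp973 is uncertain. No exon of Zfp973 carried a summit.

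Galnt11, a transferase that starts O-linked glycosylation, carried a region at chr5:25236998-25237640 with fold enrichments of 24.9, 17.04, 27.1 and 27.3, in the order shCTR A and B, then shMettl14 A and B. Ctse, the aspartic protease cathepsin E, carried its near copy at chr1:131648912-131649392 with 21.9, 23.4, 20.7 and 19.2. Both lay in a first intron, 8957 and 10729 bp from an exon, in unmasked sequence, and neither gene had an exonic summit. Another intronic region, in Miga1, was 98.0% identical to the Galnt11 window over 148 nt but was in 1 list. Aligned to the Galnt11 window were also 7 intergenic windows and 1 exonic window. With copies this similar, the assignment of reads to Galnt11 or Ctse is uncertain.

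Zfpm2, a cofactor of GATA transcription factors, carried the purine-only window at chr15:41047000-41047636 with fold enrichments of 20.2, 15.6, 24.0 and 16.8 in the same order of lists, 48161 bp from an exon. Spen, a transcriptional repressor, carried a region at chr4:141520939-141521683 with 21.6, 14.1, 14.5 and 12.4, which had no alignable partner and lay 387 bp from an exon. Gm12185 had 2 of the 12 strongest regions, in families D and C. Apc, a scaffold of Wnt signalling, carried a region with 15.1, 12.002, 16.6 and 17.7, and Dpysl3 one with 15.2, 13.1, 11.8 and 15.4, both masked. Both shMettl14 values were above both shCTR values in Galnt11, Gm36033, Apc and the first Zfp973 region, and below them in Ctse, and the groups overlapped in the others of the 12. Over the intronic regions with a summit in all 4 lists, 21 of 182 lay above in this way (11.5%, against 13.4% of regions of all classes) and 28 below (15.4%, against 18.7%). Fold enrichment is set against the background of each list, and in the test of ranks described further on no intronic region passed the threshold. The regions in Gm36033 and Sdccag8 lay in RefSeq exons, in Sdccag8 that of the pseudogene Hmga2-ps1 on the opposite strand. Of the 12, Spen alone was neither masked nor in a RefSeq exon nor alignable to another intronic window.

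**Figure D5:**
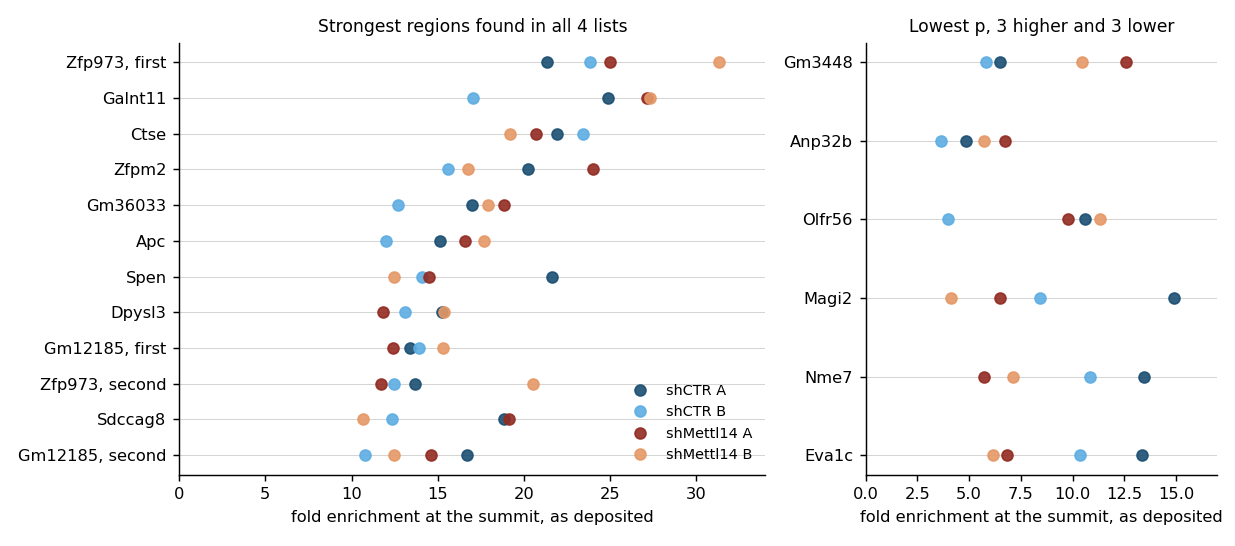
Deposited fold enrichment at the summit in each list. Left, the 12 wholly intronic single-gene regions of highest mean percentile. Right, the 3 regions with the lowest unadjusted p in each direction. On the left both shMettl14 points lie above both shCTR points in Zfp973 (first region), Galnt11, Gm36033 and Apc and below them in Ctse, and on the right they lie above them in Gm3448 and Anp32b and below them in Magi2, Nme7 and Eva1c.

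Most host genes carried a single region. Of the host genes, 785 had 1 region, 127 had 2, 42 had 3, 22 had 4 and 25 had 5 or more. The genes with most were long. Magi2 (1478 kb) and Magi3 (207 kb) encode membrane scaffolds, Gpc6 (1051 kb) a glypican, Cpq (511 kb) a carboxypeptidase, and Airn (119 kb) is the noncoding RNA antisense to Igf2r. Magi2, Airn, Gpc6 and Cpq had 11 regions each and Magi3 had 8. Of these, 3, 2, 1, 0 and 2 were in all 4 lists and 10, 9, 5, 8 and 8 were masked, in that order. Magi2 had 9 (A) and 4 (B) intronic summits with shCTR and 7 (A) and 3 (B) with shMettl14, and Airn 7, 3, 9 and 5, again more in the A lists. Gm20388, a gene model of 4435 kb, had 9, of which 6 lay in RefSeq exons. Exoc4, of the exocyst complex, had 7.

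Emcn, a sialomucin known as an endothelial marker, had 7 intronic regions and no exonic summit. Of these regions 6 were masked and 2 were in all 4 lists. Whether the cells were smooth muscle was only partly visible: Myh11 and Lmod1, of 6 smooth muscle markers, had an exonic summit in some list, and Acta2, Tagln, Cnn1 and Smtn had none. Pecam1, Cdh5 and Kdr, of 6 endothelial markers, had one, as did 1 of 5 macrophage markers (Csf1r) and 1 of 5 fibroblast markers (Pdgfra). Of all 55450 annotated genes, 6075 had one. A peak list shows where m6A was enriched and measures no transcript level, so these counts say nothing of the amounts of other cells, and their part in the intronic peaks was not tested.

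Some genes of smooth muscle and of arterial injury carried intronic regions. Of all 55450 annotated genes 1182 had an intronic region and 275 had one in all 4 lists. Of the 6075 genes with an exonic summit, 631 also had an intronic region. Of 28 contractile and regulator genes, 6 had one (Cald1, Klf4, Lmod1, Mef2a, Mrtfb and Mylk). Of the 11 of them with an exonic summit, 4 did. Klf4, Lmod1 and Mef2a had a region in all 4 lists, but that of Mef2a was masked and also lay in the body of Lysmd4. In Lmod1, leiomodin, which nucleates actin filaments, the summit lay 22 bp from an exon, with fold enrichments of 7.45 (A) and 8.33 (B) with shCTR and 7.84 (A) and 10.4 (B) with shMettl14. In Klf4, a transcription factor of the dedifferentiated smooth muscle state, the region overlapped intervals of all 4 lists, but its summit was intronic in shMettl14 A alone, in an intron of 116 bp.

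Of 34 matrix and injury genes 7 had an intronic region, and Fbln2, Mmp14 and Thbs1 had one in all 4 lists. In Thbs1 the fold enrichments were 5.36, 4.70, 5.96 and 6.35. Mmp14, a membrane-bound metalloproteinase, had 2.98, 6.66, 3.81 and 5.15, and its summit lay in a RefSeq exon of Mmp14. Fbln2, which encodes the matrix protein fibulin-2, had 2 regions that overlapped intervals of all 4 lists, but their intronic summits were in shCTR alone, with 6.15 (A) and 9.63 (B) in one and 8.95 (B) in the other. Of the 8 regions of this list 1 was control-only, where 36 of all 1565 intronic regions were. Of 20 genes of the m6A machinery 3 had a region: Zc3h13, a writer subunit, and the readers Ythdf2 and Ythdf3. In Zc3h13 and Ythdf2 it overlapped intervals of all 4 lists, 17 and 46 bp from an exon, but the summit was intronic in shMettl14 B alone in Zc3h13 (5.18) and in shCTR A (7.01) and shMettl14 B (7.90) alone in Ythdf2. Of 44 RNA processing genes 3 had one, Ddx17, Ddx5 and Srrm2, and of 20 noncoding RNA genes found in the annotation 3 had one, Airn, Mir99ahg and Rian. Among genes with an exonic summit, an intronic region was present in 6 of 24 matrix and injury genes and 3 of 12 m6A genes. It was present in 2 of 11 RNA processing genes and 3 of 9 noncoding RNA genes.

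The knockdown was then compared with the control. Intronic summits numbered 741 ± 247 in shCTR and 779 ± 290 in shMettl14 (SD, n = 2 each), a ratio of 1.05 (exact permutation p = 0.667, two-sided, with 0.333 the smallest possible). Without shCTR B the ratio was 0.850, and without shMettl14 A it was 0.775, so either list decided its direction. The intronic share was 7.37 ± 1.18% in shCTR and 6.70 ± 0.703% in shMettl14, a difference of -0.676 points that was smaller than the spread between replicates (exact permutation p = 0.667). Without shCTR A it was 0.159. The share of intronic summits within 100 bp of an exon was 17.9 ± 1.88% and 17.3 ± 1.62% (exact permutation p = 0.667), the masked share 60.7 ± 3.95% and 59.4 ± 0.770%, the DRACH share 82.5 ± 1.93% and 82.0 ± 3.69%, and the share of purine-rich windows 8.83 ± 2.54% and 9.07 ± 4.36% (exact permutation p = 1 for the last 3). Over 18 such comparisons of intronic summits each adjusted p was 1. Because these were bulk samples, fewer cells with a transcript and less of it, or of its m6A, per cell cannot be told apart.

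Few intronic regions followed the shRNA in their presence. Found in both shCTR lists and in neither shMettl14 list were 36 (2.30%), against 1.74% of regions of all classes, and found in both shMettl14 lists and in neither shCTR list were 33 (2.11%), against 1.77%. Presence in 2 lists was more often shared by the A lists, 144 regions, than by the lists of 1 shRNA. Where equal numbers of top summits were taken from each list the counts were 42 and 15. With 1 list left out, a region need be in only a single list of that shRNA, and the counts rose to between 60 and 294 for control-only and between 50 and 318 for knockdown-only regions.
Of the 36 control-only regions 10 belonged to family A, and 3 of the 33 knockdown-only regions did, where family A was 15.4% of all intronic regions. The difference between these counts was not tested. The regions in Cdkal1 and Kdm2a and a knockdown-only region in Sulf1 were members of it. Cdkal1, a tRNA-modifying enzyme, had fold enrichments of 10.2 in shCTR A and 10.1 in shCTR B, and Kdm2a, a histone demethylase, 8.06 and 9.92, each resting on 8 to 10 fragments. The others of the 4 strongest control-only regions were in Soga1 and in Ski, a repressor of SMAD signalling, with summits 37 and 34 bp from an exon. Strong knockdown-only regions were that in Sulf1, which trims sulfate from heparan sulfate (8.77 in shMettl14 A and 7.99 in shMettl14 B), and those in Nipbl, the cohesin loader, and in 1010001N08Rik (6.33 and 9.80). The Nipbl summit lay 1 bp from an exon and was intronic in shMettl14 B alone.

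Among regions with a summit in all 4 lists, none changed in rank past the threshold. limma on normal scores of the within-list ranks tested 4904 regions, of which 0% were called at an adjusted p of 0.05. The 182 intronic ones gave 0, with a smallest adjusted p of 0.767. At an unadjusted p of 0.05 there were 14 intronic regions (7.69%) against 4.98% of all regions tested, 7 higher in shMettl14 against 2.45% of all and 7 lower against 2.53%. The median intronic change was 0.03 normal-score units, and 99 of the 182 (54.4%) were higher, against 50.1% of all. With -log10 p ranked in place of fold enrichment 110 were higher (60.4%, against 50.3% of all). By fragment numbers 117 were (64.3%, against 53.8%). Of intergenic regions 51.1% were higher by fold enrichment, 60.7% with -log10 p ranked and 66.7% by fragment numbers. The lean was thus not particular to intronic regions. Fisher's exact test on fragment numbers recovered from the deposited values called 0 after adjustment and 10 intronic regions at an unadjusted p of 0.05, against 2.57% of all. With the fold filter of the study's methods added, a log2 ratio beyond 1 at an unadjusted p of 0.05, it called 1 intronic region higher in shMettl14, against 0.387% of all, and 1 lower, against 0.0612%. The former, in Olfr56, had a log2 ratio of 1.002, at the edge of the filter, and the latter, in Nme7, one of -1.14. For this test the fragments at the highest summit of a region were summed over both replicates and scaled to the total of all regions tested, so it covers counting error only and not the spread between replicates. Ranks of intronic regions correlated less between lists than those of all regions, with Spearman's rho between 0.494 and 0.596 over the 182 and between 0.690 and 0.731 over the 4904, as a description across regions that share libraries.

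The lowest unadjusted p among intronic regions was in Magi2. There the region at chr5:19347380-19347792 had fold enrichments of 14.9 (A) and 8.41 (B) with shCTR and of 6.47 (A) and 4.14 (B) with shMettl14. The groups did not overlap, but the pileups were 15, 8, 6 and 4 fragments, and the change of -1.85 ± 0.549 normal-score units (SE) had an unadjusted p of 0.00251 and an adjusted p of 0.767 in limma. Nme7, of the nucleoside diphosphate kinase family, and Eva1c followed in the same direction, with changes of -1.44 and -1.34, and both windows were purine-rich members of family A. Gm3448 (1.58), Anp32b, a histone chaperone gene (1.28), and Olfr56 (1.40) had the lowest p among regions that were higher in shMettl14. The Gm3448 summit lay in a RefSeq exon. The pileups, not scaled between lists, were 33 (A) and 20 (B) with shCTR and 27 (A) and 16 (B) with shMettl14 in Anp32b, and 21 and 21 against 14 and 14 in Eva1c. In Olfr56, an olfactory receptor gene, the fold enrichments were 10.6 and 3.97 in the shCTR lists and 9.76 and 11.3 in the shMettl14 lists, so the groups overlapped. Its highest pileups were 25 and 13 against 33 and 29 fragments.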

How the data were processed

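Total RNA of primary mouse VSMCs was fragmented and enriched with an anti-m6A antibody. The submitters' processing notes name STAR, SAMtools, MACS2 and the mm10 build, and the versions and options of the tools are not given in the sources used here. Per the study's methods, uniquely mapped reads were kept and peaks of IP samples were called against the corresponding inputs. One list per IP sample was deposited. The deposited peak lists give, for each peak, the fold enrichment at the summit as a ratio of IP to background and the -log10 p-value and q-value. The smallest deposited -log10 q-value was 2.01. The lists give no strand and no read totals, so the depth behind each list could not be computed from them; the study's methods state only a sequencing depth common to the samples. Interval files of peaks shared by replicates were deposited by the authors and were used for a count alone.

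Summits were placed on GENCODE M21 (GRCm38). A summit within a gene body but in no exon of any transcript was intronic, and intervals of such summits were merged at 1 bp of overlap. Whole fragment numbers (pileups) were solved from the deposited fold enrichment and p-value, which gave a match for 100% of summits. Motifs were sought within 50 nt of the summit on the strand of the host gene. Family windows were aligned with BLAST+ 2.17.0. Measures were compared over lists by exact permutation tests, and regions with a summit in all 4 lists by limma 3.58.1 in R 4.3.3, on normal scores of the within-list rank of fold enrichment, with Benjamini-Hochberg adjustment at 0.05. The fits were tested on simulated data. Python 3.11.15, pandas 2.3.3, scipy 1.17.1 and pysam 0.24.0 did the rest. Wilson intervals are at 95% and cover counting error only.

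Named regions were single-gene intronic ones. They were the 12 in all 4 lists and clear of exons with the highest mean percentile, the 8 genes with most regions, the 4 strongest control-only and knockdown-only regions, the 3 with the lowest p in each direction, and genes of the preset lists with a region in all 4 lists. One region that the rule names is not reported here. The members, gene lists and tests were chosen with earlier results of these data known. The alternatives were other region definitions, thresholds, motif windows, rankings and each list left out. No source says whether the replicate letters pair the samples. In the ranks of all regions tested, the deviations of the A samples from their group means correlated at 0.0786. The A lists were alike in having more summits, and 144 intronic regions were found in the A lists alone. The letters were used as pairs only in the replicate block setting.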

Additional observations from a re-analysis of the deposited data

How the results depend on the processing

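Of 117 recomputed values, 93 stayed on their side, 9 reversed and 15 moved. The 9 reversals all concerned differences between shRNAs smaller than the spread between replicates. The intronic share (-0.676 points) ranged from -1.51 to 0.159 with a list left out, reversing without shCTR A (0.159). The ratio of numbers (1.05) ranged from 0.775 to 1.38, reversing without shCTR B (0.850), without shMettl14 A (0.775) and with equal numbers of top summits (0.844). The share near an exon (-0.577 points) ranged from -1.91 to 0.755, reversing without shCTR B (0.755), without shMettl14 B (0.570), with interval midpoints (0.0297), with intervals wholly in introns (0.823) and at 50 bp (0.920). Control-only regions ranged from 60 to 294 and knockdown-only regions from 50 to 318 with a list left out, where presence in fewer lists is asked for, and knockdown-only regions numbered 15 with equal top summits. The share in all lists was 22.5 to 24.9% with a list left out, 14.6% by midpoints and 12.7% for intervals wholly in introns.

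Intronic minus exonic differences kept their sign. With a list left out they were -20.0 to -18.3 for the fold enrichment percentile, -31.3 to -30.5 for recovery, -7.81 to -6.41 for GGACT and -14.2 to -12.0 for DRACH. Over the other settings they were -22.3 to -3.89, -33.7 to -21.6, -11.7 to -4.15 and -14.6 to -8.01. The settings of 10 or fewer fragments and of unmasked summits were chosen after seeing the data. With a list left out 1 shRNA has a single list, assumed to vary like the 2 of the other, and limma then called 0 intronic regions each time, where 15 to 26 (7.14 to 10.5%, against 4.72 to 6.15% of all) had an unadjusted p under 0.05, and over all classes 3 regions without shMettl14 A, 1 without shMettl14 B and 0 otherwise. Of those at an unadjusted p under 0.05, 14 were higher and 5 lower in shMettl14 without shCTR A, and 9 higher and 16 lower without shCTR B. With the replicate block it called 0, and 19 intronic regions (10.4%, against 5.79% of all) had an unadjusted p under 0.05. With the replicate block the share difference was -0.676 (exact permutation p = 0.5, the smallest that 2 pairs allow) and the difference near an exon -0.577 (exact permutation p = 1). A median of 8 fragments per intronic summit limits what these lists can show.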
